A study of Mus musculus with 24 samples.

Results

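The thyroid hormone axis was examined in the hypothalamus of mice at the end of experimental overfeeding and after 3 days of recovery. The genes described are 9 of the 55471 genes in the count file, found there by the Ensembl identifiers of their symbols: Trh, Dio2, Dio3, Slco1c1, Thra, Thrb, Crym, Klf9 and Hr. They cover the releasing hormone, both brain deiodinases, a transporter, a cytosolic binding protein, both nuclear receptors and 2 receptor-linked regulators. Of the 9 genes, 8 were among the 18992 that passed the expression filter, and Dio3 was not.

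The samples were frozen hypothalami of lean, chow-fed male C57BL/6J mice of 18 weeks with an intragastric catheter. ExpOF mice received a sucrose-supplemented liquid diet by pump, raised in steps to 150% of baseline energy needs, while control mice received sterile water at the same flow rates, so every animal carried a catheter and was tethered. Infusion of diet ended on d14, when 1 set of mice was killed, and on d14+3 (day 17) a second set was killed after 3 days on water infusion. There were 6 mice in each of the groups Control d14, ExpOF d14, Control d14+3 and ExpOF d14+3, with 1 library per mouse, and by their dates of death 3 mice of every group formed a July cohort and 3 a September cohort. The study left out 1 Control d14 mouse for poor RNA quality, which was identified as replicate 4, so the values below rest on 23 libraries with 5 in Control d14.

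Thyrotropin-releasing hormone (TRH), made in neurons of the paraventricular nucleus, drives thyrotropin release from the pituitary and thereby the output of the thyroid, which secretes mostly the prohormone thyroxine (T4). In the brain, T4 enters through transporters such as OATP1C1, is converted to the active hormone T3 by type 2 deiodinase in astrocytes and tanycytes, and is inactivated by type 3 deiodinase in neurons. T3 then binds the receptors TRα and TRβ, which regulate transcription, and its action on paraventricular neurons closes the feedback loop on TRH.

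Trh lies on chromosome 6 (mm10, 92242061 to 92244650, minus strand), Dio2 on chromosome 12 (90724552 to 90738438, minus strand) and Dio3 on chromosome 12 (110279068 to 110280708, plus strand). Slco1c1 lies on chromosome 6 (141524368 to 141569704, plus strand), Thra on chromosome 11 (98740638 to 98768403, plus strand), Thrb on chromosome 14 (17660261 to 18033792, plus strand), Crym on chromosome 7 (120186380 to 120202111, minus strand), Klf9 on chromosome 19 (23141226 to 23168134, plus strand) and Hr on chromosome 14 (70552212 to 70572900, plus strand). Exons of Thra share 263 bases with exons of Nr1d1 on the opposite strand, and exons of Dio2 share 100 bases with the predicted gene Gm26512 on the opposite strand. The libraries were stranded. Whether strand was used in counting is not given in the sources used here, so reads in the shared bases cannot be assigned to either gene with certainty. Nr1d1 had a median of 90.7 CPM (the count scaled to the effective library size) against a mean of 555 for Thra, and Gm26512 a median of 0.770 CPM against a mean of 9.07 for Dio2.

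The 250 bases before the RefSeq transcription start are shown for the gene at the head of the axis and for both genes that rose between the days in control mice. They are from GRCm38.p6, on the strand of each gene and written 5′ to 3′, with matches to 4 motifs in capitals: the cAMP response element TGACGTCA, its core TGACG, the nuclear receptor half-site AGGTCA and the E-box CACGTG, each searched on both strands. The window for Trh is chr6:92244651-92244900, that for Dio2 chr12:90739039-90739288 and that for Klf9 chr19:23140976-23141225.
Trh: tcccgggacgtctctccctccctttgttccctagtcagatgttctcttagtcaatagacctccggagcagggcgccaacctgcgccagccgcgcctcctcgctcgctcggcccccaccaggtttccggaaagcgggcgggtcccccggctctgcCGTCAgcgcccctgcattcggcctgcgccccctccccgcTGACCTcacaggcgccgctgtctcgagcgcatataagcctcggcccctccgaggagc
Dio2: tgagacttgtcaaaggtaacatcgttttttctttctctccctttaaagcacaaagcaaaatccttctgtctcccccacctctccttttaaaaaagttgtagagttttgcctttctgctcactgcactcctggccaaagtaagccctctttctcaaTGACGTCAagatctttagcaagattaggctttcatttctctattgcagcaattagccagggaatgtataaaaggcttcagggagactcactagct
Klf9: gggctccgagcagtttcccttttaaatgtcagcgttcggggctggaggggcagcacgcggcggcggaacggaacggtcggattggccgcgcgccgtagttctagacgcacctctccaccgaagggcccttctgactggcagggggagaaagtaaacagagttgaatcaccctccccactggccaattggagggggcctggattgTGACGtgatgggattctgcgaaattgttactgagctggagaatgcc

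The Dio2 window held the full cAMP response element 95 to 88 bases before the start, a motif present in the same window of 1.55% of the 32851 RefSeq promoters. The core alone, which the full element contains on both strands, was matched in 17.8% of promoters and also in the Trh window (96 to 92 bases before the start, on the opposite strand) and the Klf9 window (46 to 42 bases). The Trh window also held the nuclear receptor half-site 57 to 52 bases before the start on the opposite strand, a match that 14.0% of promoters have. The E-box, present in 6.02% of promoters, was not among the letters of these 3 windows. These matches describe the letters and were not tested for binding. RefSeq promoters were matched for 6 of the 9 genes, and the start used for Dio2 lies upstream of the gene as counted in the file.

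Total counts per library ranged from 8928182 to 34848437. By the labels, RNA integrity (RIN) was 8.0 to 10.0 in the Control d14 libraries used, 9.6 to 10.0 in ExpOF d14, 7.2 to 9.9 in Control d14+3 and 8.8 to 10.0 in ExpOF d14+3. Of the markers listed for neurons of the hypothalamic paraventricular nucleus (Sim1, Otp, Crh, Avp and Oxt), none was at 0 in all libraries of a group. This does not show how much of the nucleus a library held. All 4 thalamus markers (Prkcd, Tnnt1, Ramp3 and Tcf7l2) were higher on d14+3 at an unadjusted p under 0.05 in either diet, and none passed the adjusted threshold. Their summed level ranged from 67.0 to 350 CPM in Control d14, from 80.3 to 217 in ExpOF d14, from 243 to 602 in Control d14+3 and from 212 to 537 in ExpOF d14+3. The day comparisons were therefore also fitted with the mean log2 CPM of these markers as a covariate, added after the data were seen. Because this level itself differed between the days, such a fit cannot fully separate the day from the thalamus level. In bulk tissue, fewer cells of a type and less RNA per cell cannot be told apart.

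Levels between genes were compared as FPKM with the exon length in the count file. Over the 23 libraries the order of mean FPKM was Thra (120), Trh (80.0), Klf9 (17.3), Slco1c1 (9.42), Hr (6.94), Thrb (3.95), Dio2 (1.56), Crym (1.40) and Dio3 (0.0946). Thra ranged from 104 to 142 FPKM and Trh from 54.0 to 110, so the ranges of these neighbours overlapped across libraries, while Thra was above Trh within every library. The range of Dio2 (0.959 to 2.20) overlapped with that of Crym (0.806 to 2.96). Klf9 (13.5 to 22.2 FPKM) and Slco1c1 (7.99 to 13.4) did not overlap. Thra, the transcript of the receptor most abundant in brain, was thus counted at many times the density of Thrb in every library.

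**Figure D1:**
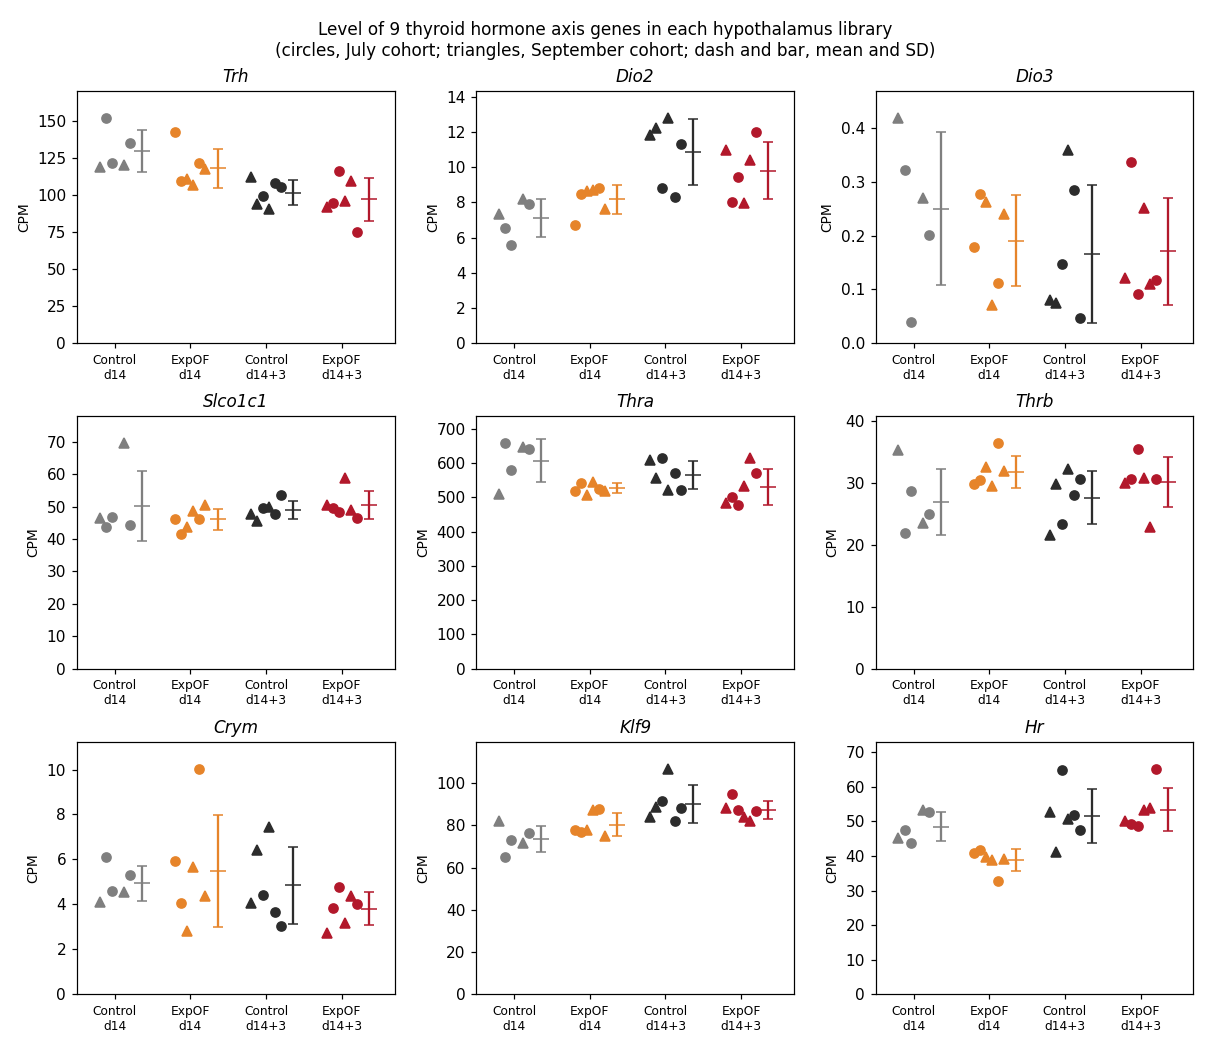
CPM of the 9 genes (y axis, from 0, own scale per panel) in each of the 23 libraries of the 4 groups (x axis), with circles for the July and triangles for the September cohort, and the mean and SD beside each group. The means of Dio2 and Klf9 are higher and those of Trh lower on d14+3 than on d14 in both diets, and all 6 Hr values of ExpOF d14 (32.8 to 41.7 CPM) sit below those of the other days and diets except 1 Control d14+3 library at 41.2.

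With edgeR's quasi-likelihood test and Benjamini-Hochberg adjustment over 18992 genes, 0 of the 8 tested genes differed between ExpOF d14 and Control d14, a comparison in which 0.00527% of all genes did. At an unadjusted p under 0.05, 2 of 8 (Hr and Thra) did, against 26.7% of all genes. Both were lower in ExpOF mice, as 13.6% of all genes were, and 0 of 8 were higher, against 13.1%. The groups did not overlap for 1 of 8 (Hr), against 2.5%. Between ExpOF d14+3 and Control d14+3, 0 of 8 were called (0% of all genes), 0 of 8 had an unadjusted p under 0.05 (7.11%, with 2.91% higher and 4.2% lower) and 0 of 8 had groups that did not overlap (0.421%). The share of these genes that differed on d14 was near the background.

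From d14 to d14+3, 2 of 8 (Dio2 and Klf9) were called in control mice, where 1.15% of all genes were. Both were higher on d14+3, as were 0.953% of all genes. In control mice 3 of 8 had an unadjusted p under 0.05 (12.7% of all genes), 2 of them higher (Dio2 and Klf9, 6.81%) and 1 lower (Trh, 5.93%), and 2 of 8 (Dio2 and Trh) did not overlap (1.58%). In ExpOF mice 0 of 8 were called between the days (0%), and 3 of 8 had an unadjusted p under 0.05 (7.79%), of which 2 were higher (Hr and Dio2, 5.39%) and 1 lower (Trh, 2.4%). The groups of 1 of 8 (Hr) did not overlap (0.832%). For the interaction of overfeeding and day 0 of 8 were called (0%), and 1 of 8 (Hr) had an unadjusted p under 0.05, against 4.42% of all genes. Its value was positive, as for 2.78% of all genes, and 0 of 8 were negative, against 1.64%. DESeq2 called 0 of 8 on d14, where it called 177 of 15665 genes with an adjusted p, and 0 of 8 on d14+3, where it called 43 of 17180. Between the days it called 3 of 8 in control mice (540 of 16423 genes) and 1 of 8 in ExpOF mice (197 of 17180), and for the interaction 0 of 8 (0 of 39939).

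**Figure D2:**
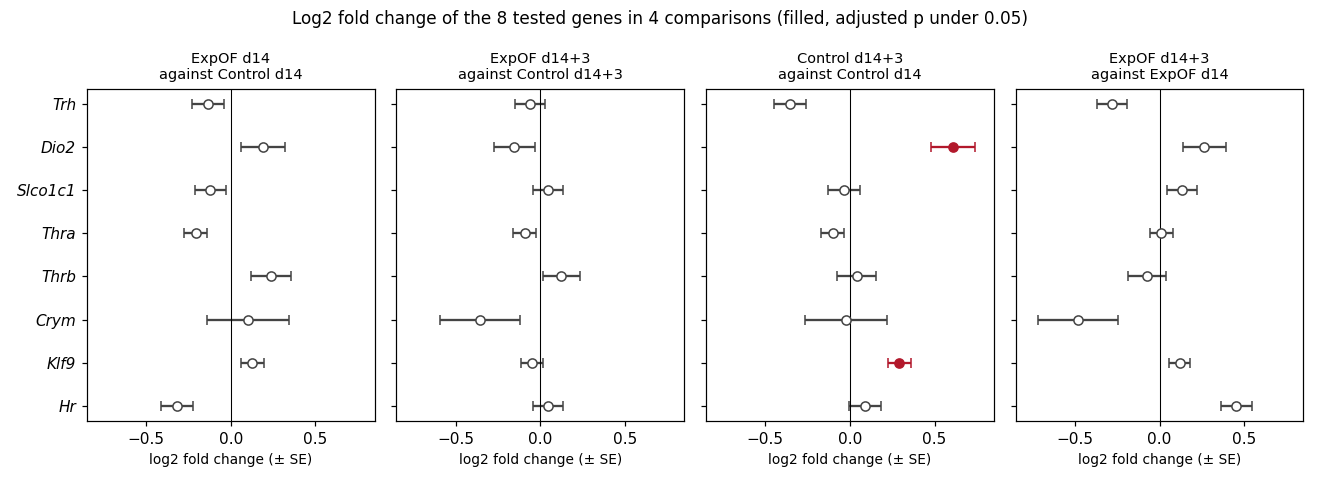
Log2 fold change with its SE (x axis) of the 8 tested genes (y axis) in 4 comparisons of the groups, from edgeR; filled points have an adjusted p under 0.05. The only filled points are Dio2 (0.61) and Klf9 (0.29) in the comparison of Control d14+3 with Control d14, and both diet comparisons hold none.

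Trh, the transcript of the TRH precursor, was lower on d14+3 than on d14 in both diets. In the Control d14 libraries it was 119, 152, 122, 120 and 135 CPM, and in Control d14+3 it ranged from 90.3 to 112 CPM with a median of 102. All 6 control libraries of d14+3 were below all 5 of d14. The log2 fold change was -0.35 (SE 0.094, edgeR adjusted p = 0.0628), and the exact permutation test gave p = 0.00433, the smallest that 6 against 5 libraries allow, two-sided as in the tests below. In ExpOF mice Trh ranged from 107 to 142 CPM (median 114) on d14 and from 74.8 to 116 CPM (median 95.1) on d14+3. Of the ExpOF d14+3 libraries, 4 were below every ExpOF d14 library, and the log2 fold change was -0.28 (SE 0.091, edgeR adjusted p = 0.260; exact permutation p = 0.0195). Neither difference passed the threshold on its own, while the day averaged over both diets, a contrast added after the data were seen, gave -0.32 (SE 0.065, edgeR adjusted p = 0.00523). The control difference passed with DESeq2 (-0.35, adjusted p = 0.0183) and, in edgeR, without Control d14 replicate 1 (-0.38, adjusted p = 0.0497), ExpOF d14 replicate 1 (-0.35, 0.0479), ExpOF d14+3 replicate 3 (-0.35, 0.0458) or ExpOF d14+3 replicate 6 (-0.35, 0.0319). It thus passed in only 4 of 23 edgeR fits with 1 library left out (adjusted p 0.0319 to 0.250). Of 14 other settings it passed in 2, DESeq2 and the average over both diets.

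The diets did not differ in Trh beyond the spread between libraries. The log2 fold change of ExpOF against control was -0.14 (SE 0.095, edgeR adjusted p = 0.344; exact permutation p = 0.165) on d14 and -0.06 (SE 0.091, adjusted p = 0.852; exact permutation p = 0.539) on d14+3. Within July mice the d14 value was -0.13 and within September mice -0.11. Between the days it was -0.39 in July and -0.27 in September for control mice and at -0.39 and -0.16 for ExpOF mice. With the thalamus level as a covariate the day difference was -0.29 (adjusted p = 0.0612) in control and -0.21 (adjusted p = 0.381) in ExpOF mice.

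Most listed markers of the paraventricular nucleus, which holds the TRH neurons that act on the pituitary, had lower values on d14+3 and in ExpOF mice. Otp, a transcription factor of this nucleus, fell in control mice (log2 fold change -0.46, SE 0.113, edgeR adjusted p = 0.0447), with -0.39 (SE 0.109, adjusted p = 0.148) in ExpOF mice. Of the 5 markers listed (Sim1, Otp, Crh, Avp and Oxt), 4 had negative values between the days in control mice and 5 in ExpOF mice. The median log2 fold changes were -0.46 and -0.45. For ExpOF against control, 3 of 5 were negative on d14 (median -0.17) and 4 of 5 on d14+3 (median -0.28), with none called. Their summed level was 204 to 465 CPM in Control d14, 180 to 284 in ExpOF d14, 167 to 390 in Control d14+3 and 120 to 208 in ExpOF d14+3. The part of these cells in the Trh values was not tested.

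Genes that make, cleave or sense TRH were taken from a list of 8: the prohormone convertases Pcsk1 and Pcsk2, carboxypeptidase E (Cpe), the amidating enzyme Pam, glutaminyl cyclase (Qpct), the TRH-degrading ectoenzyme Trhde and the receptors Trhr and Trhr2. None of the 8 was called in any of the 5 comparisons. Pcsk2 was 272 CPM at the median in Control d14 and 331 CPM in Control d14+3, a log2 fold change of 0.23 (SE 0.065, edgeR adjusted p = 0.0747), and had 0.30 (SE 0.062, adjusted p = 0.0677) in ExpOF mice. Pam had -0.21 (SE 0.056, adjusted p = 0.0632) in control and -0.12 (SE 0.054, adjusted p = 0.556) in ExpOF mice. Trhr2 had the largest values of this list between the days, 0.76 (SE 0.251, adjusted p = 0.161) in control and 0.80 (SE 0.247, adjusted p = 0.221) in ExpOF mice, at 0.828 to 4.07 CPM. Trhr2 was singled out after its values were seen.

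In the diet comparison on d14, Trhde and Trhr had higher values in ExpOF mice without reaching the threshold. Trhde was 12.7 to 21.5 CPM in Control d14 and 20.8 to 25.2 CPM in ExpOF d14, a log2 fold change of 0.41 (SE 0.139, edgeR adjusted p = 0.135). Trhr was 8.97 to 14.9 CPM in Control d14 and 15.6 to 17.0 CPM in ExpOF d14, groups that did not overlap, with a log2 fold change of 0.44 (SE 0.167, adjusted p = 0.140). On d14+3 the diet difference was 0.27 (SE 0.132, adjusted p = 0.702) for Trhde and 0.14 (SE 0.159, adjusted p = 0.813) for Trhr. The thyrotropin subunit Tshb (1.38 to 2.78 CPM over the 23 libraries) and its receptor Tshr (1.43 to 4.68 CPM) had adjusted p-values between 0.309 and 0.972 in the diet and day comparisons.

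Dio2 encodes type 2 deiodinase, which makes T3 from T4, and it had the largest called change among the 9 genes. In Control d14 it was 7.32, 6.53, 5.58, 8.19 and 7.93 CPM, and in Control d14+3 it ranged from 8.28 to 12.8 CPM with a median of 11.6. All 6 libraries of d14+3 were above all 5 of d14. Dio2 rose by a log2 fold change of 0.61 (SE 0.130, edgeR adjusted p = 0.0186), or 1.53-fold, and the exact permutation test gave p = 0.00433. In ExpOF mice it was 6.73 to 8.79 CPM (median 8.58) on d14 and 7.99 to 12.02 CPM (median 9.91) on d14+3. These groups overlapped, 4 of 6 libraries of d14+3 lay above all of d14, and the log2 fold change was 0.26 (SE 0.125, adjusted p = 0.610; exact permutation p = 0.0584).

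The smaller value in ExpOF mice was not shown to differ from that in control mice, since the interaction was -0.34 (SE 0.179, edgeR adjusted p = 0.903). The diet itself gave 0.19 (SE 0.132, adjusted p = 0.339) on d14 and -0.15 (SE 0.122, adjusted p = 0.781) on d14+3. The control change was 0.50 in July mice and 0.67 in September mice, neither called in a fit of 1 cohort (adjusted p = 0.879 and 0.178). With the thalamus level as a covariate it was 0.43 (SE 0.142, adjusted p = 0.0390), and averaged over both diets 0.44 (SE 0.090, adjusted p = 0.00514). Under that covariate the ExpOF value was 0.06 (SE 0.142, adjusted p = 0.864).

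The Dio2 call depended on several of the control libraries and was kept in 18 of 23 fits with 1 library left out. It was lost without Control d14 replicate 2 (0.58, edgeR adjusted p = 0.0926) or 3 (0.53, 0.0755), and without Control d14+3 replicate 1 (0.58, 0.0506), 2 (0.57, 0.0665) or 4 (0.56, 0.0635), and it was also lost when only both groups compared were fitted (0.61, 0.118). Of the cells that use Dio2, tanycytes and astrocytes were followed by 6 markers each. Among tanycyte markers, Col23a1 fell in control mice (-0.44, SE 0.095, adjusted p = 0.0198), 4 of 6 had negative values and none was at 0 in all libraries of a group. The summed tanycyte level was 73.2 to 94.6 CPM in Control d14, 74.5 to 89.6 in ExpOF d14, 62.8 to 81.1 in Control d14+3 and 62.0 to 85.1 in ExpOF d14+3. The 6 astrocyte markers had a median log2 fold change of 0.03 in control mice, with a summed level of 1983 to 2207 CPM in Control d14 and 2008 to 2311 in Control d14+3. Of 4 neuron markers, Syt1 rose in the same comparison (0.27, SE 0.057, edgeR adjusted p = 0.0181) and 4 of 4 had positive values, with a summed level of 2570 to 2851 CPM in Control d14 and 3027 to 3159 in Control d14+3. Gh was called lower (adjusted p = 0.0300), at 0 to 94.8 CPM in Control d14 and 0 to 0.605 CPM in Control d14+3. The part of any of these cells in the Dio2 values was not tested.

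**Figure D3:**
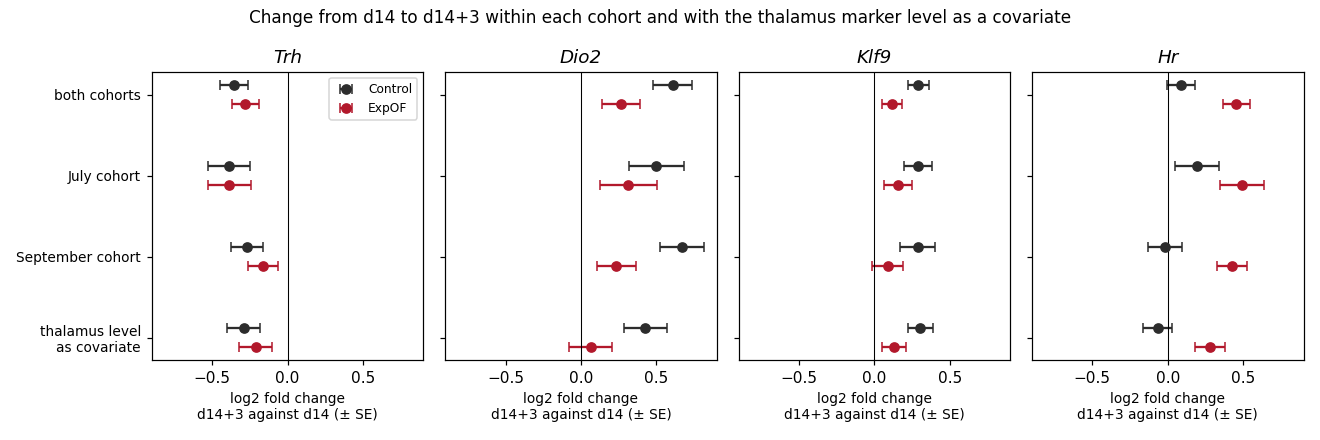
Log2 fold change of d14+3 against d14 with its SE (x axis) for Trh, Dio2, Klf9 and Hr in control (black) and ExpOF mice (red), in both cohorts together, in each cohort alone and with the thalamus marker level as a covariate (y axis). Trh is below and Dio2 and Klf9 are above 0 in every row, while Hr is between -0.067 and 0.19 in control and between 0.28 and 0.49 in ExpOF mice.

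Dio3, which encodes the T4- and T3-inactivating type 3 deiodinase, was at 1 to 10 counts per library over all 24 libraries. Its mean was 0.250 ± 0.143 CPM (SD, n = 5) in Control d14, 0.190 ± 0.085 (SD, n = 6) in ExpOF d14, 0.166 ± 0.128 (SD, n = 6) in Control d14+3 and 0.171 ± 0.099 (SD, n = 6) in ExpOF d14+3. The group ranges overlapped, and with so few counts the gene did not pass the filter and was not tested. Dio1, the type 1 deiodinase of liver and kidney, reached at most 2 counts in any library.

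Among 4 tested genes of deiodinase turnover (Wsb1, March6, Usp20 and Usp33), which add ubiquitin to type 2 deiodinase or remove it, none was called. Usp33, a deubiquitinase of this enzyme, was 0.22 (SE 0.082, edgeR adjusted p = 0.139) on d14 and 0.23 (SE 0.078, adjusted p = 0.509) on d14+3 for ExpOF against control. Of 4 genes needed to insert selenocysteine into deiodinases, none was called. Sephs2, the selenophosphate synthetase, had the smallest p on d14 among all other axis genes, with 28.2 to 41.1 CPM in Control d14 and 26.6 to 31.3 CPM in ExpOF d14 (-0.28, SE 0.080, adjusted p = 0.135).

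Slco1c1 encodes OATP1C1, the T4 transporter of the brain endothelium and choroid plexus, and 2 libraries stood apart in it. In Control d14 it was 46.4, 43.5, 46.8, 69.5 and 44.4 CPM. The fourth of these values, replicate 5, stood apart from the other 4. The other groups ranged from 41.4 to 50.5 CPM (ExpOF d14, median 46.2), from 45.6 to 53.5 (Control d14+3, median 48.6) and from 46.4 to 58.9 (ExpOF d14+3, median 49.3). The log2 fold change of ExpOF against control was -0.12 (SE 0.093, edgeR adjusted p = 0.396) on d14 and 0.04 (SE 0.089, adjusted p = 0.892) on d14+3. Between the days it was -0.04 (SE 0.093, adjusted p = 0.923) in control and 0.13 (SE 0.089, adjusted p = 0.817) in ExpOF mice.

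Both libraries with the highest Slco1c1 also had the highest levels of choroid plexus markers. Ttr, which encodes the T4 carrier transthyretin and is made in brain mainly by the choroid plexus, was 2889 CPM in Control d14 replicate 5 and 1204 CPM in ExpOF d14+3 replicate 4, against 1.01 to 29.9 CPM in the other 21 libraries. The summed level of 5 choroid plexus markers was 29.9 to 2981 CPM in Control d14, 28.0 to 35.4 in ExpOF d14, 32.8 to 60.0 in Control d14+3 and 31.0 to 1265 in ExpOF d14+3. Without Control d14 replicate 5, the d14 diet difference of Slco1c1 was 0.03 (SE 0.066, edgeR adjusted p = 0.847) and the control day difference 0.11 (SE 0.066, adjusted p = 0.568). Without ExpOF d14+3 replicate 4, the d14+3 diet difference was -0.003 (SE 0.090, adjusted p = 0.997). For Ttr itself no fold change is given as a group value, since 1 library in Control d14 and 1 in ExpOF d14+3 decided it.

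**Figure D4:**
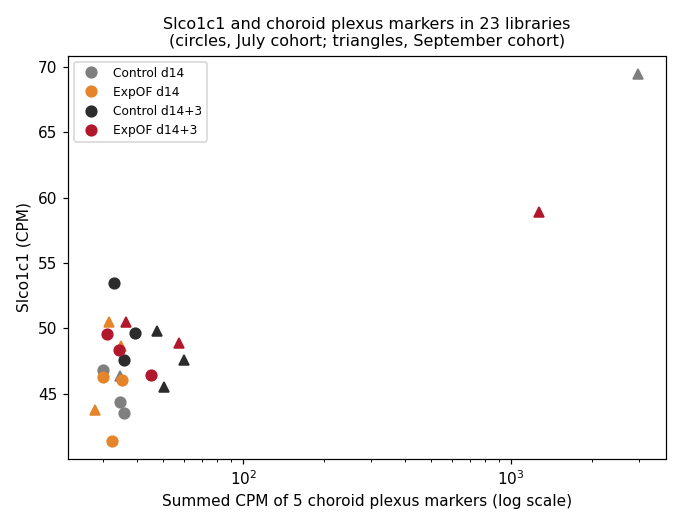
Slco1c1 level in CPM (y axis) against the summed CPM of 5 choroid plexus markers (x axis, log scale) in the 23 libraries, coloured by group, with circles for the July and triangles for the September cohort. Control d14 replicate 5 (69.5 CPM) and ExpOF d14+3 replicate 4 (58.9 CPM) stand apart at the upper right.

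Of 8 further transporters of thyroid hormone, 6 were tested and none was called. Slc7a8, the amino acid and T3 transporter LAT2, had 0.48 (SE 0.118, adjusted p = 0.0916) between the days in ExpOF and 0.40 (SE 0.123, adjusted p = 0.121) in control mice.

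Crym encodes μ-crystallin, a cytosolic protein that binds T3, and was a low and variable transcript. It was 4.93 ± 0.787 CPM (SD, n = 5) in Control d14, 5.48 ± 2.50 (SD, n = 6) in ExpOF d14, 4.84 ± 1.71 (SD, n = 6) in Control d14+3 and 3.81 ± 0.746 (SD, n = 6) in ExpOF d14+3. The range of ExpOF d14 (2.83 to 10.0 CPM) spanned those of both control groups. Its largest log2 fold change was -0.48 (SE 0.239, edgeR adjusted p = 0.660; exact permutation p = 0.149) between the days in ExpOF mice. The day difference of control mice was -0.51 in July and 0.47 in September, and the diet difference on d14+3 was 0.18 in July and -0.82 in September.

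Thra and Thrb encode the nuclear receptors TRα and TRβ, and on d14 their mean differences between overfed and control mice were opposite in sign, with groups that overlapped for both genes. Thra was 511, 657, 580, 646 and 642 CPM in Control d14 and 508 to 545 CPM (median 522) in ExpOF d14, while Thrb was 35.3, 22.0, 28.8, 23.6 and 25.0 CPM in Control d14 and 29.5 to 36.4 CPM (median 31.2) in ExpOF d14. Control d14 replicate 1, the first value of both rows, lay within the ExpOF range for both genes, and the other 4 controls lay above it for Thra and below it for Thrb. This library also had the highest level of Gh, the growth hormone transcript of the pituitary, at 94.8 CPM against at most 20.5 CPM in the other 22 libraries, and the part of this in the receptor values was not tested. The log2 fold change was -0.21 (SE 0.069, edgeR adjusted p = 0.135; exact permutation p = 0.0260) for Thra and 0.24 (SE 0.118, adjusted p = 0.195; exact permutation p = 0.0693) for Thrb. Without Control d14 replicate 1 they were -0.26 (adjusted p = 0.0201) and 0.36 (adjusted p = 0.0300), in a fit that called 4220 genes in place of 1. On d14+3 the diet difference was -0.09 (SE 0.066, adjusted p = 0.774) for Thra and 0.12 (SE 0.112, adjusted p = 0.791) for Thrb.

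Between the days neither receptor was called. Thra had -0.10 (SE 0.069, edgeR adjusted p = 0.591) in control and 0.01 (SE 0.066, adjusted p = 0.990) in ExpOF mice, and Thrb 0.04 (SE 0.117, adjusted p = 0.934) and -0.07 (SE 0.112, adjusted p = 0.933). With the thalamus level as a covariate the control values were -0.27 (SE 0.060, adjusted p = 0.0170) for Thra and 0.30 (SE 0.108, adjusted p = 0.0490) for Thrb, in a fit that called 3620 genes in place of 218. When each library's trend with exon length was removed, the d14 diet difference of Thrb, whose exon length of 7403 bases is the largest of the 9, was 0.14 (adjusted p = 0.366). That of Thra was -0.22 (adjusted p = 0.151). The span of the genes with their introns did not enter this fit.

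Across libraries the receptor transcripts ran opposite to each other. Over the 23 libraries the log2 CPM of Thra and Thrb had a Pearson's r of -0.87 (permutation p = 1e-05, the smallest 100000 permutations can give; adjusted over the 28 pairs of tested genes, p = 0.00028) and a Spearman's rho of -0.81 (permutation p = 2e-05, adjusted p = 0.00056). Within groups r was -0.87, in the 12 July libraries -0.88 and in the 11 September libraries -0.88, and without the 2 libraries farthest from the median Thra it was -0.83. How many other pairs of genes reach such an r was not counted, so the relation is not shown to be particular to the receptors. Among 14173 genes searched, the highest r was 0.96 for Thra (with Sqstm1) and 0.94 for Thrb (with Pdpk1). Of the 28 pairs, 3 others had an adjusted p under 0.05 for Pearson's r over libraries pooled across the groups. They were Trh with Klf9 (r = -0.71, rho = -0.76, permutation p = 0.00021 and 5e-05, adjusted p = 0.00196 and 0.0007), Trh with Dio2 (r = -0.69, rho = -0.71, permutation p = 0.00021 and 0.00022, adjusted p = 0.00196 and 0.00154) and Dio2 with Klf9 (r = 0.67, rho = 0.71, permutation p = 0.00045 and 0.00021, adjusted p = 0.00315 and 0.00154). Without the 2 farthest libraries these were -0.71, -0.60 and 0.56. The permutations did not keep the groups, so the p of these 3 pairs also carries differences between groups, those between the days included. Within groups r was -0.43, -0.40 and 0.28, all nearer 0 than over the 23 libraries, and these were not tested. In July they were -0.70, -0.71 and 0.66 and in September -0.80, -0.65 and 0.70.

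**Figure D5:**
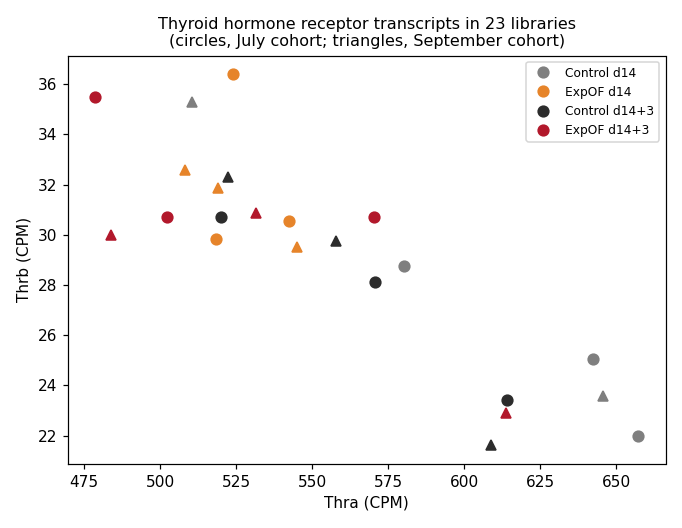
Thrb level (y axis, CPM) against Thra level (x axis, CPM) in the 23 libraries, coloured by group, with circles for the July and triangles for the September cohort. The points fall from upper left to lower right, and Control d14 replicate 1 (511 and 35.3 CPM) sits at the upper left, away from the other Control d14 libraries.

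Klf9 and Hr encode transcriptional regulators linked to the receptors: Klf9, a zinc finger protein that T3 and glucocorticoids both induce, and hairless, a corepressor that binds the receptors and is itself induced by T3. Klf9 was 82.0, 64.8, 73.0, 71.6 and 76.5 CPM in Control d14, and it ranged from 82.0 to 107 CPM (median 88.3) in Control d14+3. Of the 6 libraries of d14+3, 5 lay above all of d14. Klf9 rose by a log2 fold change of 0.29 (SE 0.068, edgeR adjusted p = 0.0284; exact permutation p = 0.00866), or 1.22-fold. In ExpOF mice it was 75.2 to 87.8 CPM (median 77.8) on d14 and 82.1 to 94.8 CPM (median 87.1) on d14+3, a log2 fold change of 0.12 (SE 0.065, adjusted p = 0.713; exact permutation p = 0.0368). The interaction was -0.17 (SE 0.094, adjusted p = 0.903), so a difference between the diets in this change was not shown.

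The control change of Klf9 was 0.29 in July and 0.29 in September, and 0.31 (SE 0.081, edgeR adjusted p = 0.0193) with the thalamus level as a covariate. The call was lost without Control d14 replicate 2 (0.25, adjusted p = 0.132), 3 (0.29, 0.0846) or 5 (0.28, 0.0571) and without Control d14+3 replicate 2 (0.29, 0.0728) or 4 (0.24, 0.0902), in a fit of both groups alone (0.30, 0.196) and with cohort and extraction round as covariates (0.29, 0.0504). The diet difference of Klf9 was 0.13 (SE 0.068, adjusted p = 0.221) on d14 and -0.05 (SE 0.064, adjusted p = 0.839) on d14+3. Of 5 glucocorticoid response genes (Fkbp5, Sgk1, Tsc22d3, Per1 and Zbtb16), 0 had an unadjusted p under 0.05 in any of the 5 comparisons. Between the days in control mice 4 of 5 had positive values, with a median log2 fold change of 0.14 against -0.01 over all genes. Their summed level was 205 to 212 CPM in Control d14, 212 to 235 in ExpOF d14, 191 to 288 in Control d14+3 and 205 to 257 in ExpOF d14+3. The part of glucocorticoids in the Klf9 values was not tested.

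Hr was the only one of the 8 tested genes whose ExpOF and control libraries did not overlap on d14. It was 45.1, 47.6, 43.8, 53.3 and 52.7 CPM in Control d14 and 41.0, 41.7, 39.6, 38.7, 32.8 and 39.0 CPM in ExpOF d14. Every ExpOF library was below every control library. The log2 fold change was -0.32 (SE 0.093, edgeR adjusted p = 0.135), or 0.802-fold, and the exact permutation test gave p = 0.00433. The difference did not pass the adjusted threshold. Among all the fits made it did so only without Control d14 replicate 1 (-0.34, adjusted p = 0.0249), in a fit that called 4220 of 19206 genes in place of 1. It was -0.31 in July and -0.33 in September, -0.27 (adjusted p = 0.0963) with the thalamus level as a covariate and -0.30 (adjusted p = 0.0633) with all 24 libraries.

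After 3 days of recovery the diets overlapped in Hr. It was 41.2 to 65.0 CPM (median 51.4) in Control d14+3 and 48.6 to 65.2 CPM (median 51.7) in ExpOF d14+3, a log2 fold change of 0.05 (SE 0.088, edgeR adjusted p = 0.882; exact permutation p = 0.636). In ExpOF mice all 6 libraries of d14+3 were above all 6 of d14, with a log2 fold change of 0.45 (SE 0.089, adjusted p = 0.0677), or 1.37-fold, and an exact permutation p of 0.00216, the smallest that 6 against 6 libraries allow. In control mice it was 0.09 (SE 0.093, adjusted p = 0.773; exact permutation p = 0.519). The test of the difference between these day changes gave an interaction of 0.37 (SE 0.129, unadjusted p = 0.00878, adjusted p = 0.903), so it did not pass the adjustment over all genes.

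The ExpOF day difference of Hr was 0.49 in July and 0.43 in September, and 0.28 (SE 0.098, edgeR adjusted p = 0.268) with the thalamus level as a covariate. It passed the threshold with DESeq2 (0.45, adjusted p = 0.00262), when genes under 10 counts in any library were dropped (0.46, adjusted p = 0.0492), with only both groups compared in the fit (0.45, adjusted p = 0.0226) and with cohort and extraction round as covariates (0.45, adjusted p = 0.0402). It also passed without Control d14 replicate 2 (0.46, adjusted p = 0.0482) or 5 (0.45, 0.0416), ExpOF d14 replicate 4 (0.46, 0.0350) or ExpOF d14+3 replicate 3 (0.48, 0.0224). The difference thus passed in 4 of 23 edgeR fits with 1 library left out (adjusted p 0.0224 to 0.242) and in 4 of 13 other settings.

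Partners of the receptors and genes known to be raised by T3 in rodent brain were read from 2 further lists, chosen with earlier results of these data known. Of 9 partners and cofactors (retinoid X receptors, corepressors and coactivators), 0 were called. On d14 4 of 9 (Ncor1, Ncoa1, Ncoa2 and Med1) were higher and 2 of 9 (Rxrg and Hdac3) lower in overfed animals with an unadjusted p under 0.05, against 13.1% and 13.6% of all genes. Rxrg, a retinoid X receptor that pairs with thyroid hormone receptors, was 23.1 to 25.9 CPM in Control d14 and 19.0 to 22.2 CPM in Control d14+3 without overlap (-0.25, SE 0.066, edgeR adjusted p = 0.0586). It was 20.7 to 23.1 CPM in ExpOF d14, and the diet difference on d14 was -0.17 (SE 0.066, adjusted p = 0.145).

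Of the 12 genes raised by T3, 0 were called in any comparison. On d14, 9 of 12 had lower and 3 of 12 higher values in ExpOF mice, with a median log2 fold change of -0.17 against -0.02 over all genes. At an unadjusted p under 0.05, 3 of 12 were lower and 2 higher, against 13.6% and 13.1% of all genes. On d14+3, 8 of 12 still had lower and 4 of 12 higher values in ExpOF mice, with a median of -0.10 against 0.01 over all genes. Between the days 10 of 12 had higher values in ExpOF mice (median 0.13 against 0.00 over all genes) and 8 of 12 in control mice (median 0.16 against -0.01). The 4 oligodendrocyte markers, of which Mbp is also in this list, had medians of -0.19 for ExpOF against control on d14 and -0.13 on d14+3. Between the days their medians were 0.17 in ExpOF mice and 0.13 in control mice. For the diet 3 of 4 were negative on d14 and 4 of 4 on d14+3, and 4 of 4 were positive in either day comparison. Their summed level was 4349 to 5990 CPM in Control d14, 4516 to 5372 in ExpOF d14, 5314 to 6574 in Control d14+3 and 4724 to 6029 in ExpOF d14+3, and none was called. The part of these cells in the values of the list was not tested. Nrgn, the neuronal protein neurogranin, had the smallest p of all other axis genes on d14+3, with 50.4 to 78.2 CPM in Control d14+3 and 39.7 to 56.9 CPM in ExpOF d14+3 (-0.38, SE 0.116, edgeR adjusted p = 0.421), after -0.37 (SE 0.121, adjusted p = 0.135) on d14. Aldh1a1, a retinaldehyde dehydrogenase, was 64.0 to 80.8 CPM in ExpOF d14 and 95.1 to 113 CPM in ExpOF d14+3 without overlap (0.48, SE 0.126, adjusted p = 0.118). Its interaction was 0.48 (SE 0.181, adjusted p = 0.903). Over all 46 tested genes of the lists of other axis genes, 0 were called in any of the 5 comparisons. At an unadjusted p under 0.05 and without Ttr, 11 of 45 were higher and 7 lower in ExpOF d14 than in Control d14, against 13.1% and 13.6% of all genes. On d14+3 these counts were 1 and 1 (2.91% and 4.2%). Between the days they were 7 and 5 in control mice (6.81% and 5.93%) and 10 and 1 in ExpOF mice (5.39% and 2.4%), and for the interaction 1 and 0 (2.78% and 1.64%). With Ttr they were 11 and 8, 2 and 1, 7 and 6, 11 and 1, and 2 and 0.

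For each gene the pattern over the 23 libraries was compared with that of 14173 genes with a mean of at least 50 counts. The most similar gene, by Pearson's r of log2 CPM, was Gpx3 for Trh (r = 0.93, followed by 6330403K07Rik and Celf6), Rgs7bp for Dio2 (0.88, then Ppm1h and Ildr2) and Enpp2 for Slco1c1 (0.88, then Abca4 and Sostdc1). It was Sqstm1 for Thra (0.96, then Uap1l1 and Mlycd), Pdpk1 for Thrb (0.94, then Prlr and Plxnc1), Eva1a for Crym (0.72, then Lmo4 and Six3), Slc35e2 for Klf9 (0.91, then Nek7 and Cldn12) and Faah for Hr (0.86, then Fam102a and Slc29a1). These genes were picked for the height of r, so the values are a description. Spearman's rho was 0.89 for Trh with Gpx3 but 0.26 for Slco1c1 with Abca4 and 0.30 with Sostdc1.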

How the data were processed

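RNA of 24 mouse hypothalami was sequenced by the authors as stranded poly-A libraries with 51-base paired ends, aligned with STAR to mm10 and summarised per GENCODE gene with featureCounts 1.6.4 (submitters' processing notes). The authors deposited whole, unscaled counts for each gene, with positions and lengths. Symbols were found for 55144 of 55471 genes.

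These counts were tested with edgeR 4.0.16 in R 4.3.3: filterByExpr at its thresholds of 10 (count) and 15 (total), TMM scaling, a robust quasi-likelihood fit with 1 coefficient per group, and Benjamini-Hochberg adjustment over 18992 genes at 0.05. The study used DESeq2, which was run here as an alternative (1.42.0). CPM and FPKM used TMM-scaled library sizes, and log2 CPM a prior of 2. Single genes were also compared by two-sided exact permutation tests over mice, which were separate animals. Total counts, 8928182 to 34848437 per library, limit the precision of low genes. Scripts were tested on simulated data.

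The study removed 1 Control d14 library. It was identified by setting the mean normalized count per gene in the study's supplementary table against the mean over the libraries without each one in turn. The genes, lists and tests were chosen with earlier results of these data known. Genes named are the 9 genes, the 3 other axis genes with the smallest p in each comparison, 7 axis genes in any case, of which 1 is not reported here, and the 3 most similar genes of each. Other alternatives were other size factors and filters, only the groups compared, all 24 libraries, each cohort, RIN, cohort with extraction round, a replicate block, removal of exon length trends and each library left out. The thalamus covariate and the averaged contrasts were added after seeing the data. No 2 libraries of a group were duplicates (60 pairs, chi-square per degree of freedom at least 2.78).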

Additional observations from a re-analysis of the deposited data

Results flagged for a closer look

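Of 36 sets of levels (9 genes in 4 groups) searched for a library far from the others of its group with Dixon's test, 4 held one, where chance alone gives about 1 in 20. Slco1c1 was 69.5 CPM in Control d14 replicate 5, with the nearest of the others at 46.8 CPM, and 58.9 CPM in ExpOF d14+3 replicate 4, with the nearest at 50.5 CPM. Both are the libraries with Ttr at 2889 and 1204 CPM. Hr was 32.8 CPM in ExpOF d14 replicate 5, the lowest of its group with the nearest at 38.7 CPM, and 65.2 CPM in ExpOF d14+3 replicate 6, the highest with the nearest at 53.8 CPM. With each of the 23 libraries left out in turn, the ExpOF day difference of Hr ranged from 0.39 to 0.48.

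Control d14 replicate 4, which the study removed and whose RIN in the labels was 9.8, had Crym at 10.8 CPM against at most 6.04 CPM in the other Control d14 libraries. In this library Slco1c1 (33.5 CPM), Thrb (13.3 CPM) and Klf9 (53.6 CPM) were below every other Control d14 library, and Trh, Dio2, Thra and Hr lay within their range.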

How the results depend on the processing

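Of 528 log2 fold changes of the 8 tested genes under another setting, 482 kept their direction and side of the threshold, as did 879 of 920 with 1 library left out. Only values with a log2 fold change of at most 0.36 in size changed direction. The cause was not tested.

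For ExpOF d14 against Control d14, where 1 gene was called, DESeq2 called 177, a fit of only the groups compared 2, the July and September cohorts alone 0 and 0, the thalamus covariate 2, the average over both days 108, and leaving out 1 library 1 to 4220. Of the 8 genes 0 to 3 were called with 1 library left out, the 3 (Thra, Thrb and Hr) without Control d14 replicate 1. For ExpOF d14+3 against Control d14+3 (0 genes called), DESeq2 called 43 and the RIN covariate 26. For ExpOF d14+3 against ExpOF d14 (0 called), DESeq2 called 197, the filter of at least 10 counts in every library 28, only the groups compared 123, cohort with extraction round 78, the thalamus covariate 1, and leaving out 1 library 0 to 157. Hr, 1 of the 8 genes, was called under each of the first 4 of these, and with 1 library left out 0 to 1. For Control d14+3 against Control d14 (218 called), DESeq2 called 540, only the groups compared 0, the July and September cohorts 0 and 0, the thalamus covariate 3620, the average over both diets 697, and leaving out 1 library 24 to 313. Of the 8 genes, where 2 were called, only the groups compared gave 0, each cohort 0, cohort with extraction round 1 (Dio2, without Klf9), the thalamus covariate 4, the average over both diets 4, and leaving out 1 library 0 to 3.

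The replicate numbers did not pair the libraries: deviations of same-numbered libraries had correlations of -0.255 to 0.364 (median -0.0316) over 33 pairs. With the replicate block, 33 genes and 0 of the 8 were called between the days in control mice, with Dio2 at 0.61 (edgeR adjusted p = 0.0728) and Klf9 at 0.27 (0.135).

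Directions turned as follows. Crym on d14 was -0.10 with all 24 libraries, -0.021 in September and -0.13 averaged over both days. On d14+3, the July cohort gave 0.050 for Dio2, -0.060 for Slco1c1, 0.18 for Crym, 0.042 for Klf9 and -0.017 for Hr, and the September cohort -0.00087 for Thrb. Between the days in ExpOF mice, Thra was -0.00067 with all 24 libraries, -0.027 in July and -0.17 with the thalamus covariate, and Thrb was 0.015 in July and 0.20 with that covariate. In control mice, Slco1c1 was 0.050 with all 24 libraries, 0.16 in July and 0.048 averaged over both diets. Thrb was -0.066 in September, -0.015 with RIN, -0.0094 without the exon length trend and -0.017 averaged over both diets. Crym was 0.47 in September, 0.0016 with RIN and 0.00064 with cohort and extraction round. Hr was -0.018 in September and -0.067 with the thalamus covariate. The interaction was -0.027 for Trh without the length trend and -0.050 for Slco1c1 in July.

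With 1 library left out, directions turned within these ranges: on d14, -0.17 to 0.026 for Slco1c1 and -0.11 to 0.24 for Crym; on d14+3, -0.12 to 0.0024 for Trh, -0.0030 to 0.072 for Slco1c1, -0.073 to 0.0060 for Klf9 and -0.017 to 0.13 for Hr. Between the days they were -0.030 to 0.042 for Thra in ExpOF mice, and in control mice -0.082 to 0.11 for Slco1c1, -0.025 to 0.16 for Thrb and -0.18 to 0.087 for Crym. Dio3, at 1 to 10 counts per library, was not tested.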
